A study of Mus musculus with 7 samples.

Results

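The aminoacyl-tRNA synthetase genes, 20 for enzymes of the cytosol and 16 for enzymes of mitochondria (symbols ending in 2), were followed across mammary glands of mice on 2 diets. Genes were chosen by symbol, and each was represented by its brightest probe set, judged by the mean of log2 signal across the 7 arrays. Of the 36 genes, 35 had a probe set annotated to that gene alone, out of 18193 genes in all, and Dars was not analysed here. The valyl-tRNA synthetase gene Vars was singled out because earlier results on these arrays had shown its difference between the diets. Its difference is therefore described here, and its limma values are not read as a test.

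The arrays came from mammary glands of virgin female FVB mice, 8 weeks old, and every mouse carried the polyoma virus middle T transgene (PyV-MT), which drives mammary tumours. The control group (3 arrays) ate AIN93G control chow. The CLA group (4 arrays) ate the same kind of chow with 1% conjugated linoleic acid, a mixture of linoleic acid isomers with conjugated double bonds, for 4 weeks. The study placed 5 and 6 mice on these diets. Both groups carry the oncogene, no array of a gland without it is compared here, and the sources used here do not give the promoter that drives it. Each array is labelled as a mouse, and where glands were not from separate mice the p-values measure only the spread between these samples.

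Each synthetase joins a given amino acid to its tRNAs, which then carry it to the ribosome. Cytosolic and mitochondrial ribosomes draw on separate sets of charged tRNAs, and most amino acids have a nuclear gene for each compartment, while Gars and Kars each supply both. Several cytosolic enzymes are held in a multi-synthetase complex with the scaffold proteins encoded by Aimp1, Aimp2 and Eef1e1, whereas Vars binds the elongation factor that delivers tRNAs to the ribosome. Many cytosolic synthetase genes are known targets of ATF4, the transcription factor of the integrated stress response, and proliferating cells are known to express them at high level.

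Values are MAS5 signals, a linear intensity scaled so that the trimmed mean was 500.003 on each array, and every change is relative to the other transcripts of a gland. The luminal genes Krt8 (15379 to 19240) and Epcam (13080 to 17107) were bright on all arrays, and the basal gene Krt14 ranged from 502.1 to 2456. Skeletal muscle and white adipocyte markers differed between arrays far more than the synthetases did. The 16 muscle genes had summed signals of 13021 to 120804 in control and 902.0 to 19184 in CLA glands, and the 12 adipocyte genes 51064 to 62378 and 18004 to 40358, with no gene at or below a signal of 1. The Actb control probe sets, which read RNA integrity as a ratio of 3′ to 5′ signal, gave 2.78 for CLA replicate 3 and 1.41 to 1.88 for the others. In bulk tissue, fewer cells of a type and less RNA per cell cannot be told apart.

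Most synthetase transcripts had slightly higher signal in CLA glands, and Vars had the largest difference. Of the 35 genes measured, 34 lay above the filter on low signal (a mean of 57.7) and were tested, and Mars2 lay below it. Limma called 0 of the 34 at an adjusted p under 0.05, against 0% of all 12497 genes tested, and the smallest limma adjusted p of the 33 genes other than Vars was 0.904. At an unadjusted p under 0.05 there was 1 gene, Vars, or 2.94% of the 34, where the share among all genes was 5.39% (2.38% higher and 3.01% lower in CLA glands). The diet groups did not overlap for Vars and Eprs, 5.88% of the 34, where the share among all genes was 5.31% (2.64% higher and 2.67% lower). Nothing is read from the place of Vars in these counts, since it was chosen for this difference, and the shares are near or below those of all genes. The log2 change was positive for 28 genes, 82.4%, where 55.3% of all genes tested had a positive change. That count moved with the processing, to 24 with quantile normalization, to 23 with the mean of each gene's probe sets and to 16 after adjustment for the muscle score. The family's median change was 0.11 on the log2 scale beside 0.03 over all genes tested. Its members share the same 7 glands, so their common sign is no set of independent observations.

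**Figure D1:**
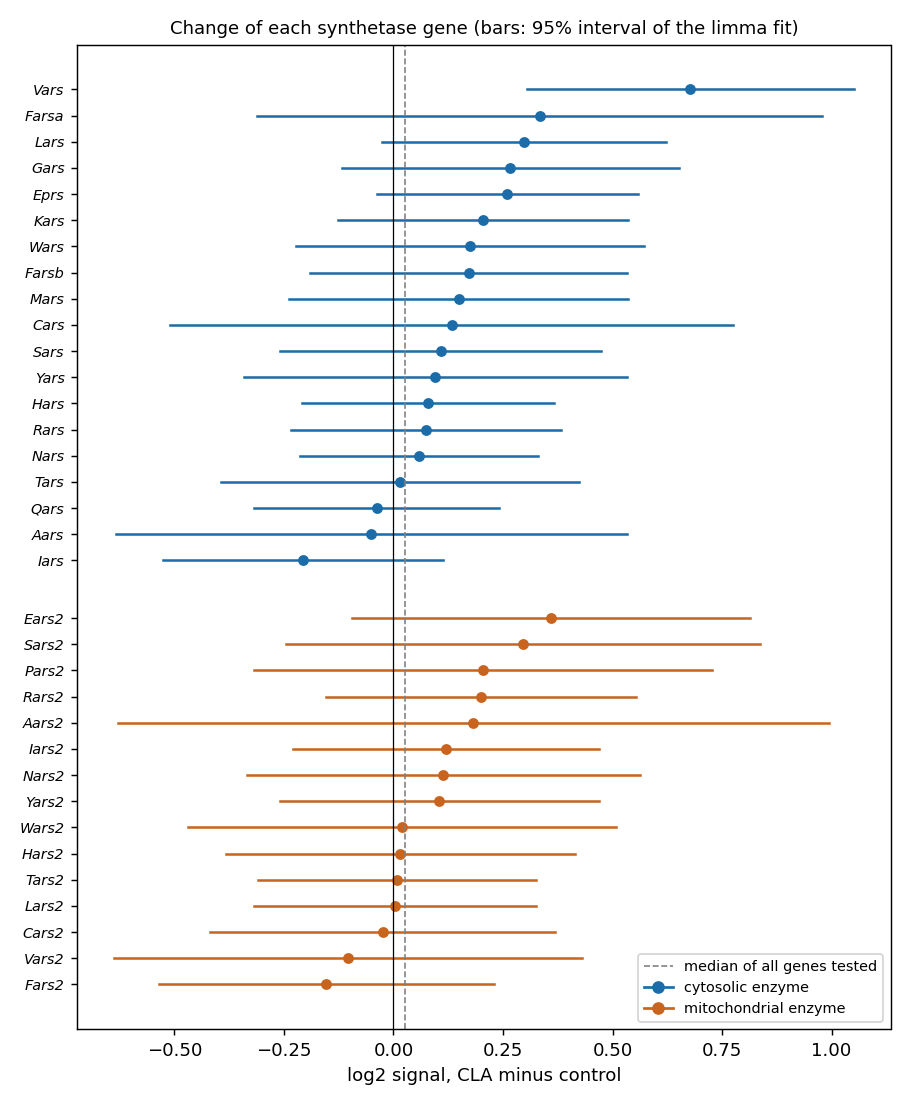
The log2 change of signal, CLA minus control, is plotted for the 19 cytosolic and 15 mitochondrial genes tested, with the 95% interval of the limma fit as a bar and the median of all genes tested as a dashed line. The intervals of the 33 genes other than Vars include 0, and Vars, chosen for its difference, is drawn as a description.

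Vars encodes the cytosolic enzyme that charges tRNA with valine. Its signal was 745.3, 824.2 and 1053 in the control glands, in order of replicate, and 1398, 1429, 1197 and 1533 in the CLA glands. All 4 CLA glands thus lay above all 3 control glands, and the nearest arrays were control replicate 3 and CLA replicate 3. The group means were 874.3 ± 160.1 (SD, n = 3) and 1389 ± 141 (SD, n = 4), 1.60-fold higher in CLA glands as a ratio of geometric means. The log2 change was 0.68 ± 0.17 (SE), with a 95% interval of the limma fit from 0.31 to 1.05. That interval makes no allowance for the choice of Vars by its difference, and is given as a description. The changes of Ears2 (0.36) and Farsa (0.33), the next largest of the family, lie inside that interval. Between control replicate 1 and CLA replicate 1, whose title numbers begin with 27, the log2 difference was 0.91, and over the other 5 arrays, whose numbers begin with 28, it was 0.57. The labels do not say what these numbers stand for.

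Some markers of other tissue components also differed between the diet groups, in part with overlap. Their part in the Vars difference was not tested, and only an adjustment for the muscle score is given below. The muscle score is the mean over the list of log2 signal minus each gene's mean. It was 0.80, 4.10 and 1.47 in control and 1.30, -3.25, -1.25 and -3.16 in CLA glands. The proliferation score was 0.35, -0.82 and -0.54 in control and 0.25, 0.37, -0.02 and 0.41 in CLA glands. That score overlapped between the diets through control replicate 1. Of its 19 genes tested 2 did not overlap, beside 2.64% of all genes apart and higher. These were Mcm7 (3282 to 5193 in control, 5572 to 6622 in CLA glands) and Ccne1. Of 8 basal epithelial genes tested 5 had a positive and 3 a negative change, down to -0.59. At a limma unadjusted p under 0.05, 3 were higher, Krt17 (a log2 change of 1.67), Krt5 (1.24) and Krt14, beside 2.38% of all genes. None passed the adjusted threshold. The groups did not overlap for Krt17 and Krt5, beside 2.64% of all genes apart and higher. The basal score overlapped, with -1.05 to 0.09 in control and -0.08 to 0.42 in CLA glands. The adipocyte score was 0.68 to 0.99 in control and -0.94 to 0.27 in CLA glands, without overlap, and the highest CLA value was that of CLA replicate 4. All 16 muscle and all 11 adipocyte genes tested were lower at a limma unadjusted p under 0.05, beside 3.01% of all genes. Their median log2 changes were -3.96 and -1.50, and 0 passed the adjusted threshold. Adjusted for the muscle score, the log2 change of Vars was 0.61 ± 0.26 (SE), and adjusted for the Actb ratio it was 0.72 ± 0.17. The muscle score itself differed between the diets, with means of 2.12 in control and -1.59 in CLA glands. Values adjusted for it, here and below, therefore cannot tell muscle and diet apart. Vars has only 1 probe set here, so no other probe set bears on its value. Vars2 encodes its mitochondrial counterpart. Vars2 signal was 250.7, 323.5 and 370.8 in control and 208.9, 342.7, 288.6 and 340.2 in CLA glands, which overlap, with a log2 change of -0.10 ± 0.24 (SE).

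**Figure D2:**
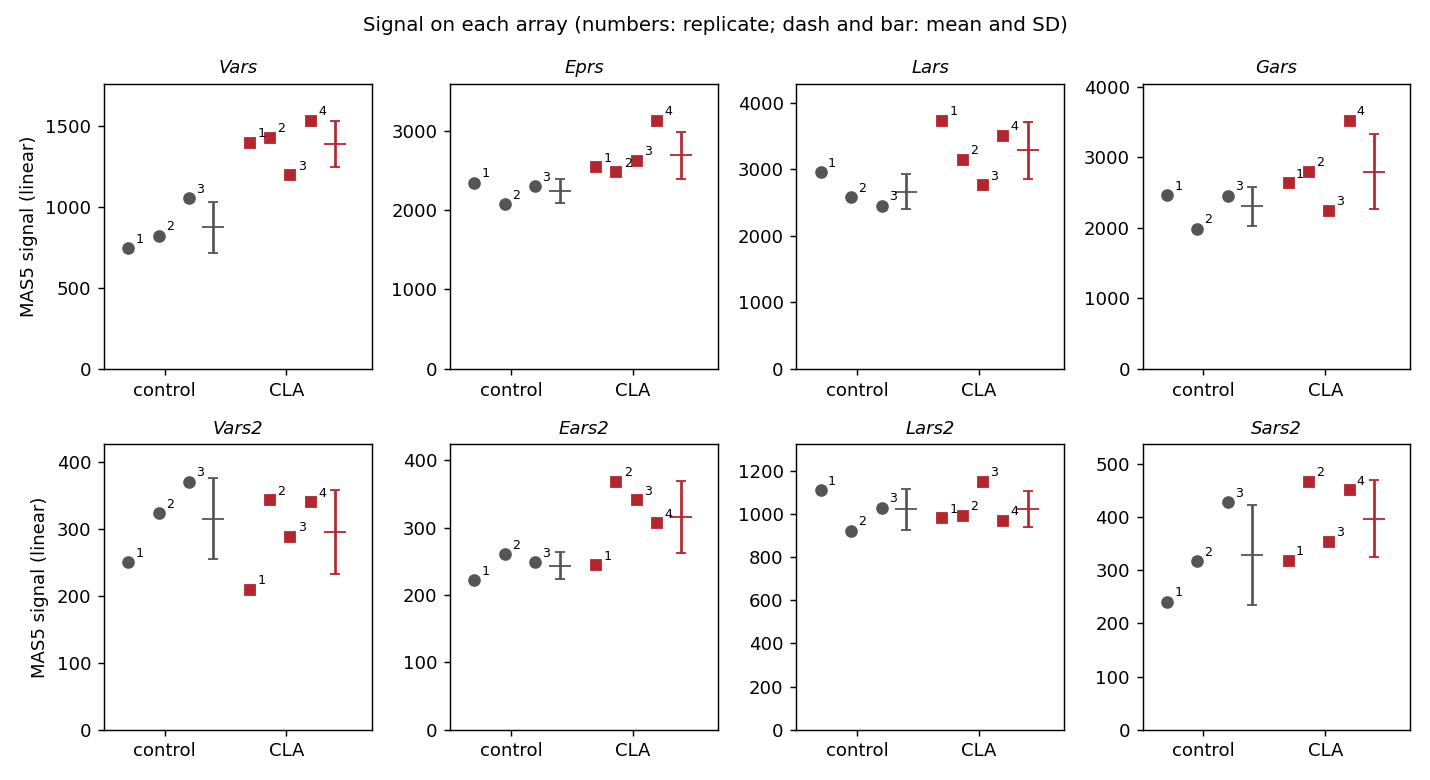
Linear MAS5 signal is plotted for each array, control as circles and CLA as squares numbered by replicate, with the group mean and SD beside them, for 4 cytosolic (top) and 4 mitochondrial (bottom) genes. The groups are apart for Vars and Eprs and overlap for the other 6 genes.

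Enzymes of the multi-synthetase complex had small differences. Of the 8 genes 7 were tested, with log2 changes from -0.21 to 0.30 and a median of 0.15, and 0 passed at an unadjusted p under 0.05. Eprs, whose product charges tRNAs for both glutamate and proline, had signals of 2344, 2073 and 2304 in control and 2541, 2479, 2620 and 3123 in CLA glands. Its groups were apart by the narrow step from 2344 to 2479, and its log2 change of 0.26 ± 0.13 (SE) had a limma adjusted p of 0.904. As a mean over all 4 of its probe sets the change was -0.07. The brightest and the next ones had 0.26, 0.05 and 0.08. Only the dimmest, with signals of 11.2 to 60.6, was negative, at -0.67. Lars, for leucine, had signals of 2958, 2581 and 2454 in control and 3731, 3144, 2765 and 3509 in CLA glands. The Lars groups overlapped through CLA replicate 3, and its log2 change was 0.30 ± 0.14 (SE), with a limma adjusted p of 0.904. Iars, for isoleucine, had the most negative change of the family at -0.21 on its brightest probe set and 0.21 on its other one. Kars, for lysine, had a log2 change of 0.20, Mars, for methionine, 0.15, Rars, for arginine, 0.07 and Qars, for glutamine, -0.04. The scaffold genes Aimp1, Aimp2 and Eef1e1 had log2 changes of 0.13, 0.20 and 0.14, and 0 of the 3 passed at that p.

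Among the other cytosolic enzymes apart from Vars, 11 genes were tested, 10 of them with a positive change, with a median of 0.11 and a range from -0.05 to 0.33. Gars, the glycine enzyme of both compartments, had signals of 2466, 1990 and 2456 in control and 2631, 2795, 2240 and 3516 in CLA glands. Its groups overlapped through CLA replicate 3, and its log2 change was 0.27 ± 0.17 (SE), or -0.01 ± 0.24 once adjusted for the muscle score. Farsa and Farsb encode the alpha and beta subunits of the cytosolic phenylalanine enzyme, a tetramer of both. Farsa signal was 999.8, 572.3 and 997.9 in control and 1071, 1232, 659.7 and 1372 in CLA glands, a log2 change of 0.33 ± 0.29 (SE), or 0.07 without control replicate 2. Control replicate 2 and CLA replicate 3 were the low arrays for Farsa. Farsb, its partner subunit, had 0.17 ± 0.16.

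The 3 other Farsa probe sets were dimmer and had log2 changes of -1.38, -0.56 and 0.06, and as their mean with the brightest one Farsa had -0.39. Aars, for alanine, had a single array apart from the rest. Its signal was 4367 on control replicate 2 and 2138 and 2208 on the other controls, beside 2850, 2252, 2284 and 3352 in CLA glands, and its second probe set had 3911 on the same array. The log2 change of Aars was -0.05 ± 0.26 (SE), and 0.29 without control replicate 2. Control replicate 2 also had the highest muscle score, 4.10, and the part of muscle in the Aars signal was not tested. The other 7 genes of this group had changes between 0.02 for Tars, the threonine enzyme, and 0.18 for Wars, the tryptophan enzyme, which is known as an interferon-induced transcript. The interferon-gamma-induced list had a median of -0.41 over 9 genes tested, with 0 past a limma unadjusted p under 0.05. All 9 had a negative change, where 55.3% of all genes tested had a positive one. The score of that list was 1.14 on control replicate 2. The other controls, at -0.34 and -0.05, lay within the CLA range of -0.38 to 0.07. On control replicate 2 Wars signal was the lowest of the controls on its brightest probe set (1009) and the highest of them on another (838.9). The list's 3 genes of smallest p were Ido1 (-0.58), Gbp2 (-0.41) and Igtp (-0.78).

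Mitochondrial enzymes also had small differences. Of 15 genes tested 12 had a positive and 3 a negative change, from -0.15 for Fars2, for phenylalanine, to 0.36 for Ears2, and 0 passed at an unadjusted p under 0.05. Ears2 charges mitochondrial tRNAs with glutamate, and mitochondria make glutaminyl-tRNA from that product through an amidotransferase. Its signal was 221.5, 260.4 and 248.2 in control and 244.4, 368.4, 341.0 and 306.7 in CLA glands. CLA replicate 1 lay within the control range and the other 3 CLA glands above it, with a log2 change of 0.36 ± 0.20 (SE). As the mean of its 4 probe sets the change was -0.01.

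Sars2, for serine, had 240.6, 317.7 and 428.1 in control and 318.3, 467.1, 354.3 and 450.6 in CLA glands. Its groups overlapped, with a log2 change of 0.30 ± 0.24 (SE). That change moved to 0.09 when control replicate 1 was left out and to 0.51 when control replicate 3 was. After adjustment for the muscle score it was 0.03 ± 0.36 (SE). Pars2, for proline, and Rars2, for arginine, both had 0.20, with SE of 0.23 and 0.16. Rars2 ranged from 1030 to 1528 in control and from 1420 to 1509 in CLA glands, so the CLA values lay inside the control range. Aars2, for alanine, was 356.2, 329.4, 130.9 and 336.9 in CLA glands, beside 210.8, 201.5 and 310.6 in control, a log2 change of 0.18 ± 0.36 (SE). CLA replicate 3, the array with the highest Actb ratio, was the low one, and without it the change was 0.53, with a limma adjusted p of 0.815. Mars2, the methionine enzyme that lay below the filter, had 59.2, 41.3 and 21.7 in control and 62.7, 13.6, 35.6 and 68.3 in CLA glands, signals too near background to size a change.

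Cytosolic and mitochondrial enzymes were then set side by side. The median log2 change was 0.13 over the 19 cytosolic and 0.10 over the 15 mitochondrial genes tested, or 0.06 over all 16 mitochondrial genes measured, beside 0.03 over all genes tested. Without Vars the cytosolic median was 0.12. Of 13 amino acids with a single gene in each compartment 12 had both genes tested, and the cytosolic change was the higher one for 6 and the mitochondrial one for 6, with a median difference of 0.00. Vars and Vars2 were furthest apart, by 0.78 on the log2 scale, and Lars and Lars2 followed with 0.29. At the other end, Iars2 had 0.12 against -0.21 for Iars, and Aars2 had 0.18 against -0.05 for Aars. Within the pair of arrays with title numbers in 27 the median was 0.09 for cytosolic and -0.06 for mitochondrial genes, and within those in 28 it was 0.18 and 0.16. Signals of different probe sets have no common scale, so the levels of the compartments are not compared.

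**Figure D3:**
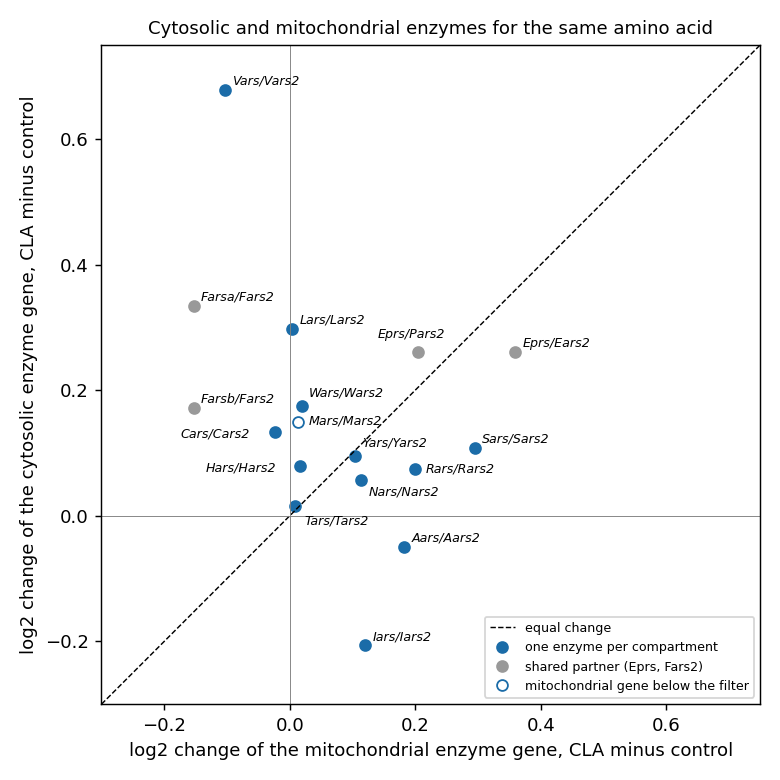
Each point is a pair of a cytosolic and a mitochondrial enzyme gene for the same amino acid. The log2 change of the mitochondrial gene is on the x axis and that of the cytosolic gene on the y axis, CLA minus control. Vars with Vars2 lies furthest above the line of equal change and Iars with Iars2 furthest below it. Open or grey points mark Mars with Mars2, below the filter, and enzymes with a shared partner.

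The arrays of each diet differed among themselves by more than the family's median change. CLA replicate 4 had the highest signal of all 7 arrays for 12 of the 19 cytosolic genes tested and for 2 of the 15 mitochondrial ones, and CLA replicate 2 was highest for 6 mitochondrial genes. Control replicate 2 was lowest for 6 cytosolic genes and CLA replicate 3 for 5. The cytosolic score, formed like the muscle score, was -0.03, -0.16 and -0.06 in control and 0.09, 0.04, -0.15 and 0.28 in CLA glands, so the groups overlapped through CLA replicate 3. The mitochondrial score was -0.00, -0.14 and -0.01 in control and -0.02, 0.16, -0.05 and 0.06 in CLA glands, which also overlapped. Across all 7 arrays the highest adipocyte scores were those of the controls, 0.68 to 0.99. The relation of the adipocyte and proliferation scores to the synthetase scores was not tested. CLA replicate 4 was the CLA gland with the highest white adipocyte score, 0.27 against -0.94 to -0.87 on the others, and control replicate 2 had the lowest proliferation score, -0.82. After that adjustment for the muscle score the medians were -0.02 for cytosolic and 0.01 for mitochondrial genes. Vars kept the highest change of the family there, followed by Aars at 0.34.

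**Figure D4:**
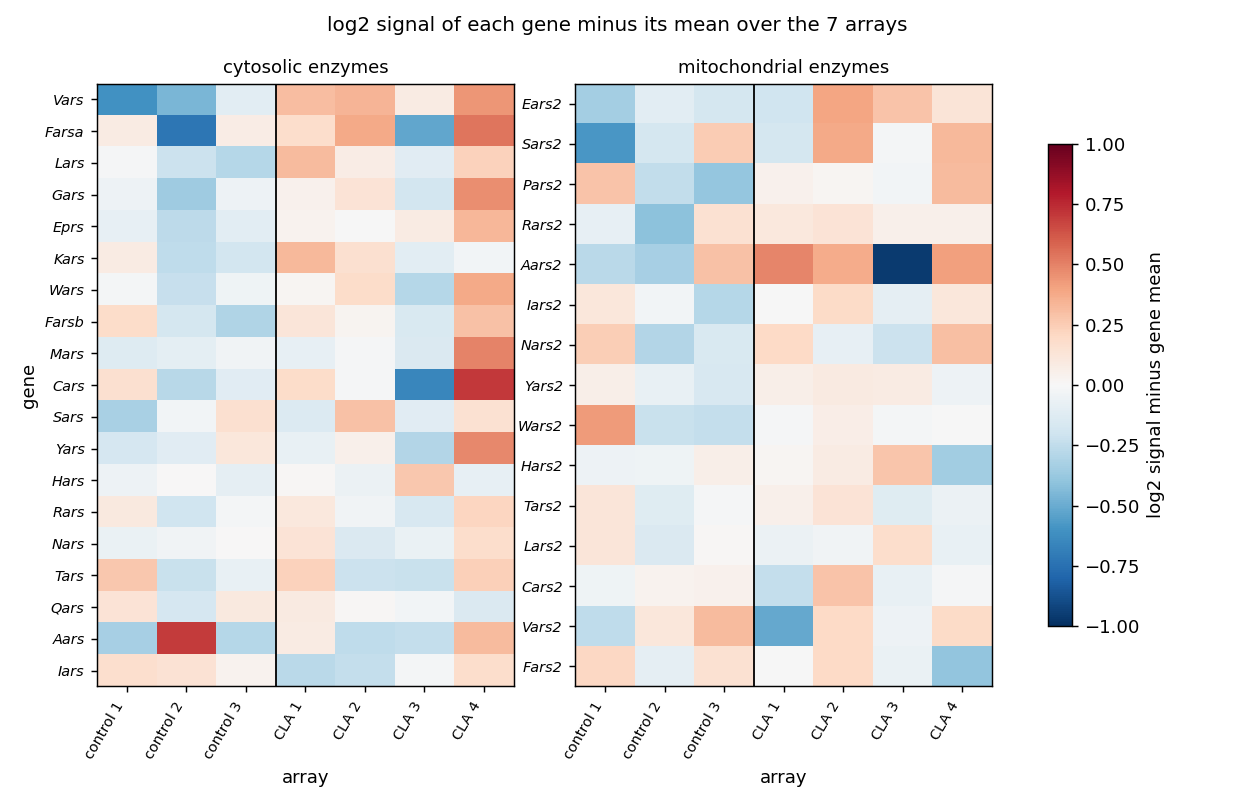
Colour gives the log2 signal of each gene minus its mean over the 7 arrays, with cytosolic genes on the left and mitochondrial genes on the right, ordered by their change, and a black line between control and CLA arrays. The Vars row changes from blue to red at the line, the CLA 4 column is red for many cytosolic genes, and Aars2 on CLA 3 is the darkest cell.

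Probe sets of the same gene often disagreed. Of the 35 genes 23 had several probe sets, and for 13 of these the probe sets differed in the sign of the log2 change, so changes of this size depend on the probe set read. Farsa, Iars and Eprs, described above, are examples, chosen after their values were seen. The count includes probe sets below the filter on low signal, such as the only negative one of Eprs and those of Mars2. The share of such genes among all genes was not counted. Names ending in s_at or x_at mark probe sets that can bind more than one transcript, and the brightest probe sets of Aars and Iars (s_at) and of Farsb and Wars (x_at) are of this kind.

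The proximal promoters were searched for the response element of ATF4, since that factor is the known common regulator of cytosolic synthetase genes. RefSeq promoter windows (GRCm38.p6, 250 bases before to 50 after the start site) covered 27 of the 36 genes, 13 cytosolic and 14 mitochondrial. The motif TGATGNAA, read on both strands, was in 5 of the 13 cytosolic genes, in 0 of the 14 mitochondrial genes and in 3.97% of all 32851 windows. The sites of those 5 genes are shown beside that of Asns, the asparagine synthetase gene, a textbook ATF4 target. Capitals mark the motif or its reverse complement, and each run of 40 bases is read 5′ to 3′ along the gene's own strand.
Aars, chr8:111033714-111033753, plus strand: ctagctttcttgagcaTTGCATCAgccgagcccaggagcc
Gars, chr6:55037955-55037994, plus strand: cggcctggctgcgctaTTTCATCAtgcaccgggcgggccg
Iars, chr13:49682121-49682160, plus strand: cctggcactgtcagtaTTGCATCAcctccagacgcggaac
Tars, chr15:11399650-11399689, minus strand: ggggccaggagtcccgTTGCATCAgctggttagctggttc
Yars, chr4:129189890-129189929, plus strand: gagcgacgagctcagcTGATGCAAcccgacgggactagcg
Asns, chr6:7693209-7693248, minus strand: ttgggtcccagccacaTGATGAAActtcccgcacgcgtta

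Of these sites, 4 share the 8 bases TTGCATCA on one strand or the other (Aars, Iars, Tars and Yars), a form held by 0.895% of all windows, and Aars holds a second, TTTCATCA, downstream of its start. The E-box CACGTG was in 4 of the 13 cytosolic genes (Aars, Farsb, Iars and Tars), in 1 of the 14 mitochondrial genes (Ears2) and in 7.15% of all windows. In all, 7 motifs were searched. The other 4 were ATTGG, CCGGAAGT, TGACGTCA and GGGCGG, present in 7, 2, 0 and 8 of the 13 cytosolic genes and in 37.4%, 3.89%, 1.79% and 35.7% of all windows. A match is a string of letters and no measure of binding. The 5 cytosolic genes with TGATGNAA had log2 changes of -0.05 (Aars), 0.27 (Gars), -0.21 (Iars), 0.02 (Tars) and 0.10 (Yars), with a median of 0.02. The 7 measured cytosolic genes whose window lacked it had a median of 0.17, from -0.04 to 0.33. These ranges overlap, and the difference of the medians was not tested. The values of Aars, Iars and Farsa in them depend on the array or probe set read, as given above. Vars is among the 9 genes outside the promoter table.

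Other genes of the pathway gave a background for these values. Of 21 ATF4 and amino acid stress genes tested, 15 had a positive and 6 a negative change, from -0.55 to 0.59. Among all genes tested 55.3% had a positive change. At an unadjusted p under 0.05, 4 of the list were higher and 0 lower, where 2.38% and 3.01% of all genes were. With the adjustment over all genes 0 passed. Ddit4, a stress-induced inhibitor of mTORC1, had a log2 change of 0.47 ± 0.16 (SE), and Shmt2 and Phgdh, of mitochondrial folate and serine metabolism, had 0.47 ± 0.15 and 0.53 ± 0.20. The limma adjusted p of these 3 ran from 0.762 to 0.867. Asns and Atf4 itself had 0.02 ± 0.31 and 0.07 ± 0.12, so the list did not move as a block.

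Beside the shares of all genes, 55.3% with a positive change and 2.38% higher at an unadjusted p under 0.05, these lists stood as follows. Ribosome biogenesis genes had positive changes in 23 of 23 genes tested, with a median of 0.32 and 2 at an unadjusted p under 0.05, Nhp2 (0.53 ± 0.20) and Nop56 (0.31 ± 0.12), both of small nucleolar RNA complexes, followed by Gnl3 (0.33 ± 0.16). Genes of tRNA processing and transcription had positive changes in 19 of 19, with a median of 0.14 and 0 at an unadjusted p under 0.05, the smallest p belonging to the RNase P subunit genes Rpp40 (0.49 ± 0.23) and Pop7 (0.27 ± 0.17) and the RNA polymerase III subunit gene Polr3b (0.23 ± 0.16). The 4 cytosolic elongation factor genes had changes of 0.02 to 0.04, with Eef1a1 at 0.04 and Eef1d and Eef2 at 0.03. Mitochondrial translation genes had a median of 0.06, with 10 of 15 positive and 0 at an unadjusted p under 0.05, and Mrpl3 (0.33), Mtif3 (0.22) and Mrpl12 (0.18) had the smallest p.

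Proliferation markers had positive changes in 19 of 19 genes tested and a median of 0.62, led by Mcm7 (0.62), Ccne1 (1.01) and Mcm6 (0.75). Of the 19, 8 were higher at an unadjusted p under 0.05, beside 2.38% of all genes, and 0 passed the adjusted threshold. The diets did not overlap for 2 (Mcm7 and Ccne1), beside 2.64% of all genes apart and higher. The summed signal of the 19 genes was 27814 to 62093 in control and 48233 to 61450 in CLA glands. Their part in the synthetase changes was not tested. Lsm2 and D17H6S56E-5, which lie just before Vars on chromosome 17 in RefSeq, were looked up after the Vars values were seen. D17H6S56E-5, directly adjacent, had a log2 change of 0.52 ± 0.22 (SE) with signals of 488.5 to 903.7 in control and 766.6 to 1024 in CLA glands, and Lsm2, of RNA splicing and decay, had 0.36 ± 0.18. Both overlapped between the groups, and Vwa7, on the other side of Vars, lay below the filter.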

How the data were processed

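Total RNA of each gland was biotin-labelled and hybridised to an Affymetrix array of 45101 probe sets, per the labels' protocols. Per the submitters' processing notes, the deposited intensity values are linear MAS5 signals, and these were used without further scaling, with signals below 1 set to 1 before log2. Probe sets with 1 gene symbol (34945) were named from GEO's platform annotation, updated by Entrez identifier through RefSeq (34741 matched). A filter at the 40th percentile, equal to a mean signal of 57.7, removed 5696 genes and left 12497.

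The diets were compared by limma 3.58.1 (R 4.3.3) with lmFit and a trended eBayes, which had 4.53 prior degrees of freedom, two-sided and without covariates. The Benjamini-Hochberg adjustment ran over every gene tested, at a threshold of 0.05, and intervals are at 95%. The number of arrays limits the precision. The fit was tested on simulated data.

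The members and gene lists were chosen with earlier results of these data known. Named genes were Vars, Vars2, members whose groups did not overlap, the 5 largest changes in each compartment and the 3 genes of smallest p in each other list used. Partners of a named gene could be named with it. Aars, Iars, Tars and Yars were named for their promoter motif, and Asns, Atf4 and the other members given by amino acid were added for completeness. Promoter motifs were searched in RefSeq windows. Alternatives were other scalings, pseudocounts of 16 and 64, the mean of probe sets, other filters (none, 60th percentile), other eBayes settings, covariates, the title number as a block or alone, and each array left out.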

Additional observations from a re-analysis of the deposited data

Results flagged for a closer look

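Of 13 values checked over the 4 CLA arrays (the 11 named synthetase genes and the scores of both compartments), 1 had an array far from the others. For Aars2 the gap between the lowest array, CLA replicate 3, and the next was 0.922 of the whole range of log2 signal. This exceeds Dixon's 95% critical value for 4 samples, which chance passes in about 1 of 20 groups. The signals were 130.9 on that array and 329.4 to 356.2 on the other 3.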

How the results depend on the processing

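Limma called 0 synthetase genes under each of the 20 alternatives, 13 settings and 7 left-out arrays, and the smallest adjusted p apart from Vars was 0.425, for Lars without control replicate 1. Vars had the highest change of the family under all 20, from 0.57 to 0.82. That is a description only, since every alternative reuses arrays on which Vars was chosen. Quantile normalization gave 24 and median centring 29 positive changes of 34. The count at an unadjusted p under 0.05, 1 here, was 2 with median centring, 2 with the title number as a block and 3 with the Actb ratio as a covariate, and 1 to 4 with an array left out, the highest without CLA replicate 3, where Lars, Farsa and Aars2 joined Vars. The muscle score as covariate gave a cytosolic median of -0.018 and a mitochondrial one of 0.011. With an array left out the cytosolic median ran from 0.07 to 0.22 and the mitochondrial one from 0.00078 to 0.10, the lowest without control replicate 2. The cause was not tested. Over all genes 0 were called, 1 higher when the arrays numbered in 28 were fitted alone, and with an array left out 0 to 2 higher (2 without control replicate 1) and 0 to 17 lower (17 without CLA replicate 4).

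Of the 11 named genes Vars, Lars, Sars2, Pars2 and Rars2 kept their direction under every alternative that could be run. Eprs, Gars, Ears2 and Aars2 changed sign under 1 alternative each, and Vars2 and Farsa under 2. Pars2 was below the 60th percentile filter. No paired analysis was possible because the replicate numbers follow accession order and pair no samples. The deposited signals carry no probe-level spread, so small changes of dim genes such as Mars2 could not be sized.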
